A study of Mus musculus and Homo sapiens with 10 samples.

Results

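Trimethylation of histone H3 at lysine 9 (H3K9me3), a mark of silent chromatin, and at lysine 4 (H3K4me3), a mark of active promoters, was mapped by chromatin immunoprecipitation followed by sequencing in NIH3T3, an immortalized mouse fibroblast line. The comparison takes both deposited peak lists whole, 23795 peaks of H3K9me3 and 27982 of H3K4me3, together 51777 of the 156956 peaks in the 7 NIH3T3 lists. The labels describe exponentially growing cells, name no treatment or genetic change, and give an Abcam antibody against each trimethylated residue. The lists of the same cells for Pol II, H3K9ac, H4 hyperacetylation, UBF and Pol I are used beside the 2 marks where they meet them. Each mark has 1 list, so nothing below has a replicate error, no test was made, and the values describe these lists. The files hold positions without gene names or scores, so the cell type could not be checked against marker genes, the depth is unknown, and sites are named by position in the mouse build mm9.

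The 2 marks belong to opposite ends of chromatin regulation. H3K9me3 is written by the SUV39H and SETDB1 methyltransferases and bound by HP1 proteins, and it is known for pericentromeric satellites, endogenous retroviruses and clusters of KRAB zinc finger genes. H3K4me3 is written by the SET1 and MLL complexes at CpG-rich promoters, where the general transcription machinery and acetylated histones are also found. The marks can still share an interval, since neighbouring nucleosomes, the 2 alleles of a locus and different cells of a culture are read together, and these cannot be told apart in a list of peaks.

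H3K9me3 peaks were the narrower of the 2 sets and covered less of the genome. Their median width was 1050 bp (quartiles 838 and 1396), against 1685 bp (1084 and 2547) for H3K4me3. H3K9me3 covered 29.2 Mb and H3K4me3 56.1 Mb, which on chromosomes 1 to 19 and X came to 1.09% and 2.17% of the 2577 Mb that the NIH3T3 lists span. Wide peaks were rarer for the silent mark, with 85 H3K9me3 peaks and 851 H3K4me3 peaks of 5 kb or more. The lists also differed outside the assembled chromosomes. Unplaced contigs held 754 H3K9me3 peaks on 164 contigs, and 226 H3K4me3 peaks on 73, and chromosome Y held 63 and 3.

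By chromosome, the silent and the active mark were dense in much the same places. Across chromosomes 1 to 19 and X, the number of H3K9me3 peaks per Mb followed that of H3K4me3 with a Spearman correlation of 0.77 and a Pearson correlation of 0.77 over 20 chromosomes, which share the 2 libraries. Chromosome 19 had the highest density of H3K9me3, at 14.5 peaks per Mb, followed by chromosome 17 at 14.3 and chromosome 11 at 14.1. H3K4me3 was densest on chromosome 11, at 20.03 peaks per Mb, and stood at 15.7 on chromosome 19 and 14.1 on chromosome 17. Chromosome X was lowest for both, with 3.50 peaks of H3K9me3 and 3.78 of H3K4me3 per Mb. Covered length gave the same picture, with a Spearman correlation of 0.80 over the 20 chromosomes, and the highest and lowest values for H3K4me3 were 44.6 kb per Mb on chromosome 11 and 6.47 kb per Mb on chromosome X. For H3K9me3 they were 18.7 kb per Mb on chromosome 11 and 3.87 kb per Mb on chromosome X.

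The balance between the marks was uneven. There were 0.482 H3K9me3 peaks for each H3K4me3 peak on chromosome 9, the lowest ratio, 0.518 on chromosome 7 and 0.569 on chromosome 8. At the other end stood chromosome 5, with 1.06, and chromosome 15, with 1.05. Chromosome 9 thus carried 5.59 H3K9me3 peaks and 11.6 H3K4me3 peaks per Mb, while chromosome 5 carried 12.8 and 12.1. What sets this order was not tested.

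**Figure D1:**
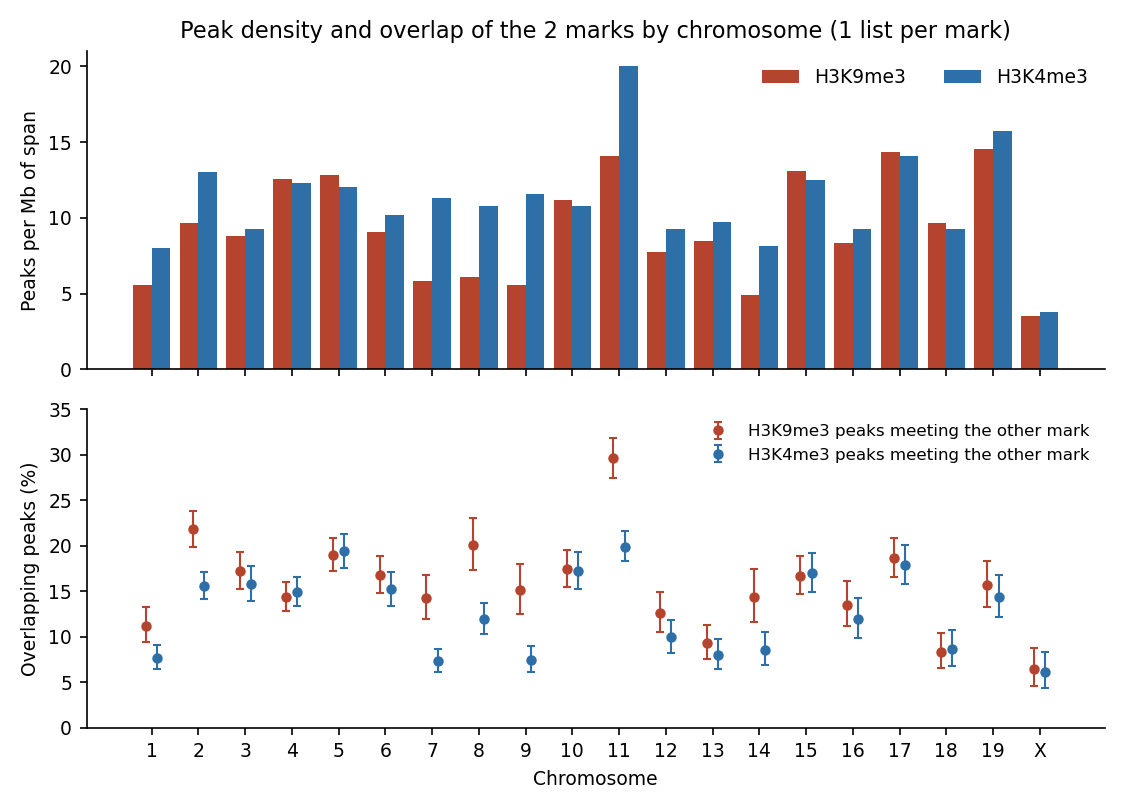
Top, peaks per Mb of span for H3K9me3 (red) and H3K4me3 (blue) on each chromosome. Bottom, the percentage of each mark's peaks that meet the other mark by at least 1 bp, with exact 95% binomial intervals as bars. Chromosome 11 has the tallest H3K4me3 bar (20.03 per Mb) and the highest share of H3K9me3 peaks that meet H3K4me3 (29.6%), and chromosome X is lowest in every series.

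Most bins of 1 Mb held peaks of both marks. Of 2588 bins on chromosomes 1 to 19 and X, 2056 (79.4%) held peaks of both marks, 458 (17.7%) held H3K9me3 without H3K4me3, 33 (1.28%) held H3K4me3 without H3K9me3, and 41 held neither. H3K9me3 reached 2365 and H3K4me3 1982 of the 2424 bins on chromosomes 1 to 19, and 149 and 107 of the 164 on chromosome X. A large number of shared bins follows from such filling alone. Whether it goes beyond that was not tested. Peak counts correlated over the bins with a Spearman rho of 0.50 and a Pearson r of 0.49, and covered length with a rho of 0.53 and an r of 0.54. These points share both libraries, base composition and the share of sequence to which reads can be aligned, so the coefficients are descriptions. With the overlapping peaks removed from both lists, rho was 0.35 for counts and 0.38 for covered length. The active lists followed H3K4me3 much more closely than H3K9me3 did, with rho for peak counts at 0.98 for H3K9ac, 0.96 for H4 hyperacetylation and 0.94 for Pol II. H3K9me3 itself had a rho of 0.50, 0.54 and 0.51 with these 3 lists, close to its 0.50 with H3K4me3.

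The silent mark thickened step by step with the active one. Bins without an H3K4me3 peak (499 bins) held a median of 4 H3K9me3 peaks, with quartiles of 2 and 7. The median was 5 in the 592 bins with 1 to 4 H3K4me3 peaks, 6 in the 463 bins with 5 to 9, and 9 in the 532 bins with 10 to 19. It reached 14 in the 406 bins with 20 to 39 and 20 in the 96 bins with 40 to 71, where the quartiles were 12.8 and 28. The share of H3K9me3 peaks that met H3K4me3 climbed along the same scale, from 6.62% (5.85 to 7.45) in the bins with 1 to 4 H3K4me3 peaks, through 16.4% (15.5 to 17.5) in those with 10 to 19, to 40.4% (38.2 to 42.6) in the fullest group. A rise in this share follows from the grouping, since bins with more H3K4me3 peaks give more of them to meet. Whether the climb goes beyond that was not tested. Here and below, values in parentheses after a share are exact 95% binomial intervals over peaks. They leave out every source of error but counting, and they treat neighbouring peaks as independent.

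Single chromosomes departed from this pattern. Within each of the 19 autosomes the rho over bins was above 0, from 0.21 on chromosome 19 to 0.79 on chromosome 11, with a median of 0.56. On chromosome X it was -0.13 over 164 bins for counts and -0.14 for covered length. Bins with H3K9me3 and no H3K4me3 made up 31.7% of chromosome X and 16.7% of the autosomes. The fullest H3K4me3 bin without the silent mark also lay there, from 7000001 to 8000000, with 38 H3K4me3, 39 Pol II and 38 H3K9ac peaks. With 1 chromosome X and 1 list per mark, the difference from the autosomes was not tested.

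**Figure D2:**
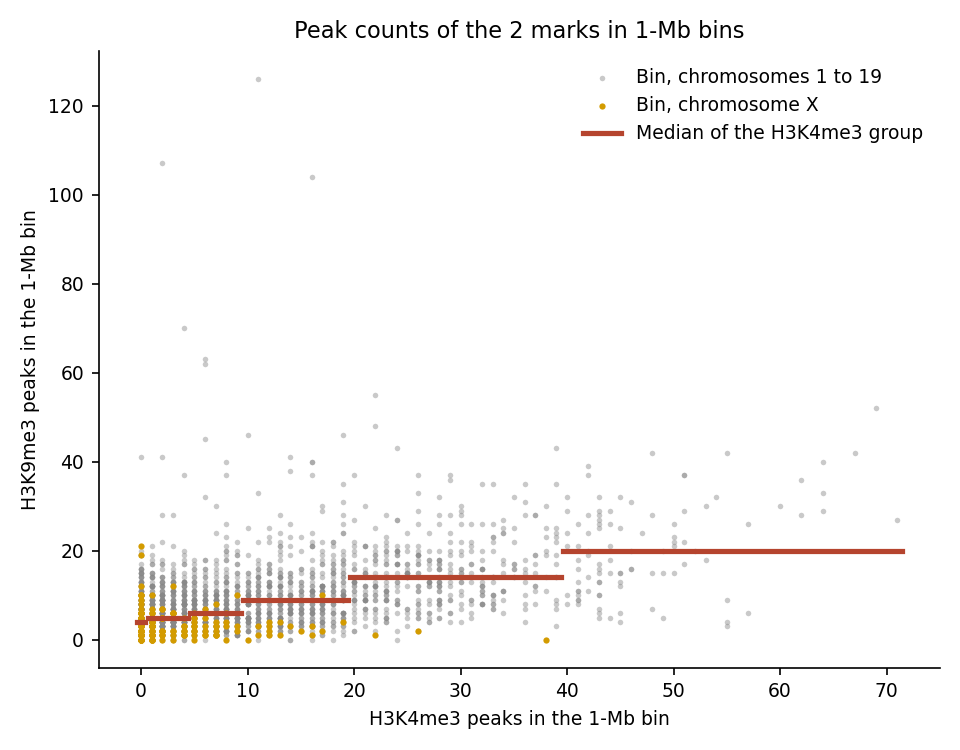
Each point is a 1-Mb bin, with its number of H3K4me3 peaks on the horizontal axis and of H3K9me3 peaks on the vertical axis (grey for chromosomes 1 to 19, yellow for chromosome X). Red bars are the median H3K9me3 count in groups of bins by H3K4me3 count, and go from 4 to 20, while the 5 highest points, with 63 to 126 H3K9me3 peaks, have 16 H3K4me3 peaks or fewer.

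The fullest bins of the 2 marks coincided in part. The 258 fullest bins of each mark, 10% of the genome, held 30.4% of the H3K9me3 peaks and 35.7% of the H3K4me3 peaks, and 111 bins (43.0%) were in both sets. The fullest H3K9me3 bins held a median of 25 H3K4me3 peaks, against 6 over all bins, and the fullest H3K4me3 bins a median of 16 H3K9me3 peaks, against 7. The 5 fullest H3K9me3 bins stood outside the shared set. The first lay on chromosome 4, from 146000001 to 147000000, with 126 H3K9me3 and 11 H3K4me3 peaks, and its neighbour from 145000001 held 104 and 16. On chromosome 13 the bin from 66000001 held 107 H3K9me3 peaks, 2 H3K4me3 peaks and no Pol II peak, and the one from 65000001 held 70 and 4. The last, on chromosome 5 from 15000001, held 63 and 6.

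Most of the few H3K4me3 peaks in these 5 bins met the silent mark. Together the bins held 470 H3K9me3 and 39 H3K4me3 peaks. Of the H3K4me3 peaks, 32 (82.1%, 66.5 to 92.5) met H3K9me3, against 13.9% in the whole list, while 6.81% (4.70 to 9.48) of the H3K9me3 peaks met H3K4me3. The 5 fullest H3K4me3 bins were the reverse, with 335 H3K4me3 and 190 H3K9me3 peaks. There 52.6% (45.3 to 59.9) of the H3K9me3 peaks met H3K4me3, and 26.6% (21.9 to 31.6) of the H3K4me3 peaks met H3K9me3. The bins were picked by peak number, which also sets how often peaks of the other mark can be met.

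The fullest H3K4me3 bins combined both marks with dense Pol II. They lay on chromosome 19 from 5000001 (71 H3K4me3, 27 H3K9me3 and 142 Pol II peaks), chromosome 11 from 97000001 (69, 52 and 143), chromosome 17 from 35000001 (67, 42 and 98), chromosome 10 from 80000001 (64, 29 and 164) and chromosome 2 from 30000001 (64, 40 and 98). The bin on chromosome 11 had the best joint standing, 8th for H3K9me3 and 2nd for H3K4me3. It was followed by chromosome 10 from 79000001, with 42 H3K9me3 and 55 H3K4me3 peaks, the bins on chromosomes 17 and 2 already named, and chromosome 15 from 79000001, with 37 and 51. Some bins were one-sided. The bin with the most H3K9me3 peaks and no H3K4me3 peak, on chromosome 4 from 60000001, held 41 of them, with no Pol II peak and 1 peak each of H3K9ac, H4 hyperacetylation and UBF. This bin and the one on chromosome X were picked out after their values were seen.

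Pooled over chromosomes, the bins nearest the centromere held more peaks of both marks than the rest. Mouse chromosomes have the centromere at one end, and mm9 numbers them from it. The first 3 bins of each chromosome (60 bins) held a mean of 13.3 H3K9me3 peaks and 13.0 H3K4me3 peaks, against 8.77 and 10.7 in the other 2528 bins. The medians were 12.5 against 7 for H3K9me3 and 8.5 against 6 for H3K4me3. Single chromosomes varied, and the first 3 bins had the higher mean on 15 of 20 chromosomes for H3K9me3 and on 9 of 20 for H3K4me3. Most satellite repeats of the centromere itself are not placed on the assembled chromosomes, and the lists do not show how reads from repeats were treated.

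Clusters were taken as chains of peaks of 1 mark with gaps of at most 20 kb and at least 5 peaks. H3K4me3 formed 1086 clusters with 7717 peaks (27.6% of its list), and H3K9me3 formed 435 with 3325 peaks (14.0%). The number depends on the gap, which is one choice among several, and was 255 and 480 for H3K9me3 and H3K4me3 with gaps of at most 10 kb. The clusters of the silent mark were fewer but reached higher, with up to 57 peaks against 30 for H3K4me3. At the other end, 42.8% of H3K9me3 peaks and 29.0% of H3K4me3 peaks stood alone in their chain. Most clusters took in a peak of the other mark: 133 H3K9me3 clusters (30.6%) had no H3K4me3 centre inside, and 330 H3K4me3 clusters (30.4%) no H3K9me3 centre. Of the H3K9me3 clusters, 111 (25.5%) overlapped a cluster of H3K4me3, and 112 H3K4me3 clusters (10.3%) overlapped one of H3K9me3.

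Clustered peaks met the other mark slightly more often than the rest. Clustered H3K9me3 peaks met H3K4me3 at 18.9% (17.6 to 20.3), and the others at 16.3% (15.8 to 16.8). For H3K4me3 these shares were 16.4% (15.5 to 17.2) and 13.0% (12.5 to 13.5). Clustered peaks were slightly wider, with medians of 1149 bp against 1039 bp for H3K9me3 and 1844 bp against 1625 bp for H3K4me3.

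The 5 largest H3K9me3 clusters on the assembled chromosomes were of different kinds. The largest, on chromosome 4 from 146679287 to 147032658, chained 57 H3K9me3 peaks that covered 21.1% of 353 kb, with 6 H3K4me3 peaks and no Pol II peak inside. A pair lay close together on chromosome 5. From 14900113 to 15062550 there were 52 H3K9me3 peaks over 51.3% of the interval, with 8 H3K4me3 and 26 H4 hyperacetylation peaks. From 15112655 to 15221312 there were 36 over 61.8%, with 4 and 16. The first also held 9 Pol II and 7 H3K9ac peaks, and the second 2 and 5. In the first, 8 of the 52 met H3K4me3. On chromosome 12, from 20182364 to 20338662, 38 H3K9me3 peaks stood with 2 H3K4me3 peaks and 1 of H4 hyperacetylation. The cluster on chromosome 8 from 19853078 to 20037737 held the most peaks of the active lists among the 5. Its 37 H3K9me3 peaks covered 51.5% of 185 kb together with 23 H3K4me3, 34 Pol II, 17 H3K9ac and 33 H4 hyperacetylation peaks, and 18 of the 37 met H3K4me3.

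Of the 5 largest H3K4me3 clusters, 4 also held H3K9me3 peaks. On chromosome 3, from 88965649 to 89264943, 30 H3K4me3 peaks were chained with 38 Pol II and 4 H3K9me3 peaks. On chromosome 19, from 5723550 to 5967602, 27 H3K4me3 peaks covered 44.1% of the interval, with 51 Pol II and 5 H3K9me3 peaks. The third, on chromosome 13 from 23589337 to 23678958, had 24 H3K4me3, 16 Pol II and 14 UBF peaks and no H3K9me3 peak. It was the shortest of the 5 intervals, at 89.6 kb. The last of these clusters, on chromosome 17 from 35833183 and on chromosome 3 from 121276730, held 23 H3K4me3 peaks each, with 9 and 4 H3K9me3 peaks.

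Among peaks with a partner on the same sequence, 71.2% of H3K9me3 and 84.3% of H3K4me3 had the other mark within 100 kb. On chromosomes 1 to 19 and X there were 8.92 H3K9me3 and 10.8 H3K4me3 peaks per Mb. Such densities alone put many peaks within 100 kb of the other mark. Whether the marks were nearer or farther than that was not tested. The distance between centres had a median of 24.5 kb (quartiles 4.53 and 140 kb) from an H3K9me3 peak to the nearest H3K4me3 peak, and of 23.2 kb (6.00 and 63.5 kb) from an H3K4me3 peak to the nearest H3K9me3 peak. Both medians depended on the peaks taken, and in the wider 50% of each list they were 38.3 and 38.95 kb. The tails differed. Of the H3K9me3 peaks with a partner on the same sequence, 6761 (28.8%) lay more than 100 kb from any H3K4me3 peak, and 1015 more than 1 Mb, up to 5.96 Mb. In the other direction, 4388 (15.7%) lay beyond 100 kb and 21 beyond 1 Mb, up to 1.86 Mb. Peaks of the same mark were nearer, with medians of 14.6 kb between H3K9me3 neighbours and 9.87 kb between H3K4me3 neighbours, and 58.0% of H3K9me3 and 63.3% of H3K4me3 peaks had a peak of their own mark closer than one of the other.

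H3K9me3 peaks were most numerous on H3K4me3 peaks and less so beside them. Besides the 3969 H3K9me3 peaks that met H3K4me3, 786 had their edge within 1 kb of one, 678 between 1 and 2 kb, 532 between 2 and 3 kb, and 2848 between 3 and 10 kb, which is 407 per kb. Of all H3K9me3 peaks with a partner, 35.3% had an H3K4me3 centre within 10 kb. The H3K9me3 peaks more than 100 kb away were narrower, at a median of 978 bp, than the nearer ones that did not overlap, at 1058 bp.

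**Figure D3:**
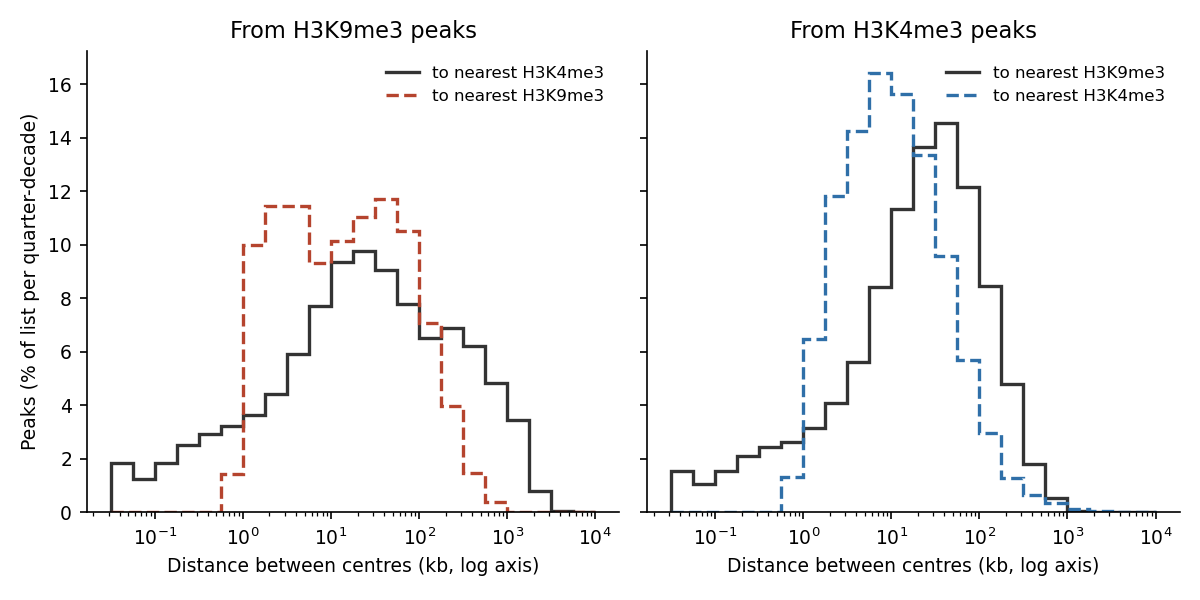
Distance from each peak's centre to the nearest centre of the other mark (solid black) and of its own mark (dashed), on a log axis, as a percentage of the list in each step; distances shorter than the first step are counted in it. The solid curve from H3K9me3 peaks (left) runs further to the right than that from H3K4me3 peaks (right), with 28.8% and 15.7% of peaks beyond 100 kb.

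Direct overlap of at least 1 bp joined 3969 H3K9me3 peaks (16.7%, 16.2 to 17.2) with 3898 H3K4me3 peaks (13.9%, 13.5 to 14.3), in 4075 pairs. Of the bases under H3K9me3, 15.2% were also under H3K4me3, which covers 2.17% of the span, and of the bases under H3K4me3, 7.87% were under H3K9me3, which covers 1.09%. Where a stricter overlap was asked, with at least 50% of the peak covered, 14.0% of H3K9me3 and 5.90% of H3K4me3 peaks were left. The shares differed among chromosomes. For H3K9me3 they ran from 6.47% (4.595 to 8.81) on chromosome X and 8.37% (6.60 to 10.4) on chromosome 18 to 29.6% (27.4 to 31.9) on chromosome 11. For H3K4me3 they ran from 6.15% (4.39 to 8.34) on chromosome X and 7.33% (6.13 to 8.675) on chromosome 7 to 19.9% (18.3 to 21.6) on chromosome 11. On the unplaced contigs 132 of 754 H3K9me3 peaks (17.5%, 14.9 to 20.4) met H3K4me3. There 147 of 226 H3K4me3 peaks (65.0%, 58.4 to 71.2) met H3K9me3. The numbers that met were thus similar, and the shares stood far apart because H3K9me3 had more peaks on contigs.

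At the shared sites the H3K9me3 peak was usually the narrower one. The median width was 1204 bp for H3K9me3 and 2482 bp for H3K4me3, and the median log2 ratio of the widths was -0.98 (quartiles -1.64 and 0.06), which is 0.507 times the H3K4me3 width. H3K9me3 was narrower in 3005 pairs (73.7%) and wider in 1070 (26.3%). In 2099 pairs (51.5%) the H3K9me3 peak lay entirely inside the H3K4me3 peak, in 611 (15.0%) the H3K4me3 peak lay inside the H3K9me3 peak, and 1365 (33.5%) overlapped in part. Most pairs were simple, with 3541 (86.9%) in which each peak met 1 peak of the other mark. The widths hardly moved together, at a Spearman rho of 0.12 over the 4075 pairs.

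**Figure D4:**
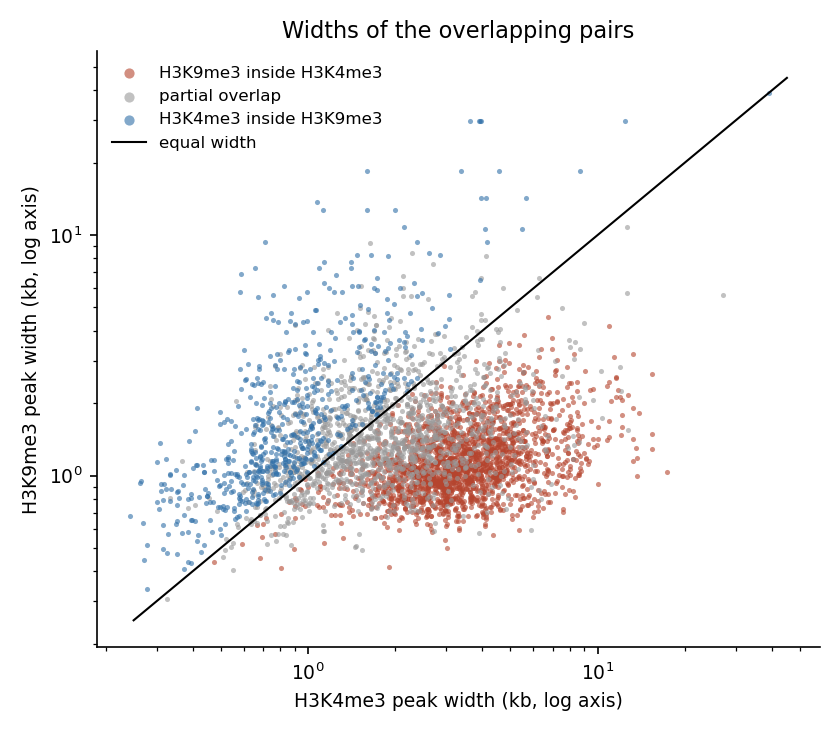
Widths of the 4075 overlapping pairs, with the H3K4me3 width on the horizontal and the H3K9me3 width on the vertical axis (both log), coloured by whether one peak lies inside the other; the line marks equal width. Below the line 3005 pairs have the narrower H3K9me3 peak, and 1070 lie above it.

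H3K9me3 peaks inside H3K4me3 peaks sat towards the middle. The offset of the centres was taken as a share of the room that the narrower peak has, from 0 where the centres coincide to 1 where the edges touch. Its median was 0.344 (quartiles 0.167 and 0.593) over the 2099 pairs, and 1396 of them (66.5%) were in the inner part of the room, at 0.5 or less. Over all 4075 pairs the centres were a median of 404.5 bp apart (154 to 911.5 bp).

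The pairs were divided by whether the H3K4me3 peak met all 3 active lists. In 2957 pairs (72.6%) the H3K4me3 peak also met Pol II, H3K9ac and H4 hyperacetylation. Counted over peaks, all 3 lists were met by 71.8% of H3K4me3 peaks with H3K9me3, 47.3% of those without and 50.7% of the whole list. The widths on either side of this division differed. In the pairs with all 3 lists the H3K4me3 peak was wide, with a median of 3034 bp. The H3K9me3 peak of these pairs was 1186 bp, for a median log2 ratio of -1.35. In the other 1118 pairs the H3K4me3 peak had a median width of 1130.5 bp and H3K9me3 1254 bp, the median log2 ratio was 0.23, and H3K9me3 was the wider one in 60.3%. Of these H3K4me3 peaks, 86.8% still met H4 hyperacetylation, 55.3% H3K9ac and 14.5% Pol II, counted over pairs. H3K4me3 peaks that held an H3K9me3 peak inside met Pol II in 94.9% of pairs and H3K9ac in 99.1%. Their median width was 3305 bp. Among H3K4me3 peaks of 2548 bp or more without H3K9me3, these shares were 93.4% and 99.9%, counted over peaks. The pairs were not limited to this width. All H3K4me3 peaks of this width with H3K9me3 met the lists at 97.9% and 99.8%. H3K4me3 peaks that lay inside H3K9me3, with a median width of 832 bp, met Pol II in 55.3%, H3K9ac in 53.8% and H4 hyperacetylation in 90.0%. Among H3K4me3 peaks of at most 1084 bp without H3K9me3, these shares were 11.9%, 58.8% and 62.7%, counted over peaks. Of the 611 pairs with H3K4me3 inside, 431 had an H3K4me3 peak in this width range. All H3K4me3 peaks of this width with H3K9me3 met the lists at 41.0%, 52.2% and 86.2%.

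The share of H3K4me3 peaks that met H3K9me3 depended on their width. In 4 groups of nearly equal size, H3K9me3 was met by 10.2% (9.48 to 10.9) of the narrowest H3K4me3 peaks (243 to 1084 bp), by 7.71% (7.09 to 8.36) and 11.5% (10.8 to 12.3) of the middle groups, and by 26.3% (25.3 to 27.4) of the widest (2548 to 41813 bp). The narrowest group was thus above the next one, although a wider peak has more room to meet another. The H3K9me3 peaks met in these groups were of similar width, with medians of 1096, 1302, 1177.5 and 1237 bp from the narrowest H3K4me3 group to the widest. Which peak lay inside the other followed from the grouping by width itself. In the narrowest group 60.3% of the pairs had the H3K4me3 peak inside, and in the widest 79.5% had the H3K9me3 peak inside. Contigs and chromosome Y supplied 12.4% of the pairs in the narrowest group and 0.353% in the widest. For H3K9me3 the share that met H3K4me3 went up through all 4 groups, from 9.56% (8.83 to 10.3) of the narrowest to 24.0% (22.9 to 25.1) of the widest.

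**Figure D5:**
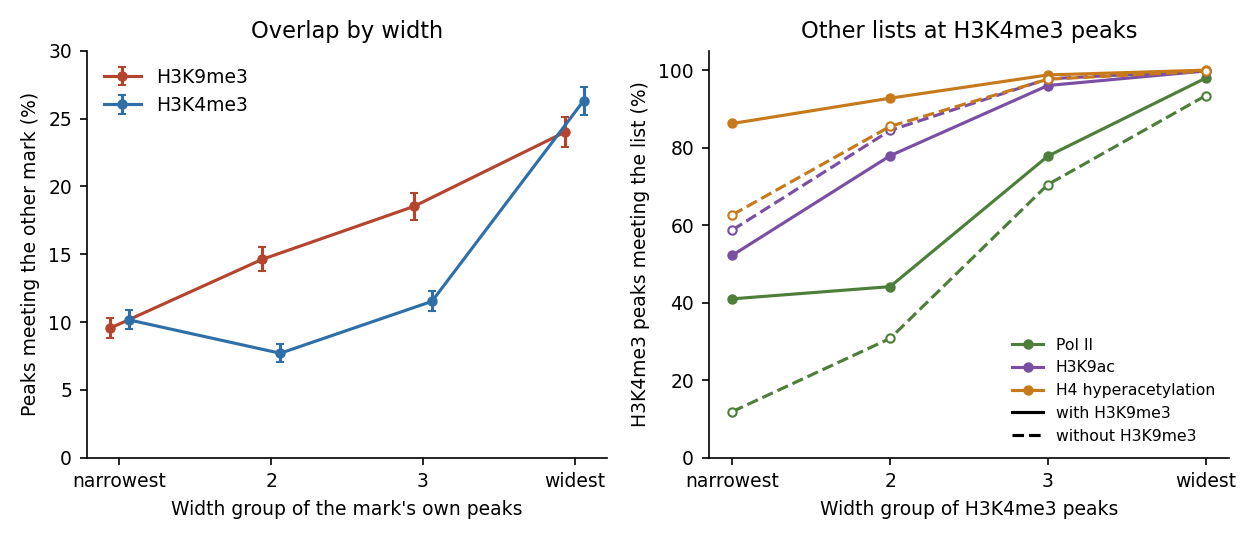
Left, percentage of peaks that meet the other mark in 4 groups of each mark's own width, with exact 95% binomial intervals. Right, percentage of H3K4me3 peaks that meet Pol II, H3K9ac or H4 hyperacetylation in the 4 H3K4me3 width groups, with (filled, solid) and without (open, dashed) H3K9me3. In the narrowest group the peaks with H3K9me3 are higher for Pol II (41.0% against 11.9%) and lower for H3K9ac (52.2% against 58.8%).

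H3K4me3 peaks with H3K9me3 met Pol II more often than those without, in every width group. Over the whole list Pol II was met by 75.9% (74.6 to 77.3) of the 3898 H3K4me3 peaks with H3K9me3 and by 49.5% (48.8 to 50.1) of the 24084 without, and the peaks with H3K9me3 were wider, at a median of 2422 bp against 1611 bp. In the narrowest group Pol II was met by 41.0% with H3K9me3 and 11.9% without, and in the widest by 97.9% and 93.4%. Acetylation divided. H4 hyperacetylation was also higher with H3K9me3, at 86.2% against 62.7% in the narrowest group. H3K9ac was lower with H3K9me3 in the narrowest group, at 52.2% (48.5 to 56.0) against 58.8% (57.5 to 59.99), and in the next, at 77.9% (74.2 to 81.4) against 84.4% (83.5 to 85.3). In the third the shares were 96.0% (94.4 to 97.3) and 97.8% (97.4 to 98.1), with adjoining intervals, and in the widest 99.8% and 99.9%, where 4 of 1840 and 5 of 5152 peaks lacked H3K9ac. Over the whole list the order was the other way, at 87.3% with H3K9me3 and 84.5% without, and 1840 of the 3898 peaks with H3K9me3 were in the widest group.

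Away from H3K4me3, the silent mark met few active lists. Of the 19826 H3K9me3 peaks without H3K4me3, 17511 (88.3%, 87.9 to 88.8) met none of Pol II, H3K9ac and H4 hyperacetylation, against 74.1% of all H3K9me3 peaks. These 3 lists were met by 53.2%, 84.9% and 87.2% of all H3K4me3 peaks, so leaving out H3K4me3 also leaves out many of their sites. The largest part of the remainder was with H4 hyperacetylation, at 9.24% (8.84 to 9.65), against 3.93% (3.67 to 4.21) with Pol II and 1.21% (1.06 to 1.37) with H3K9ac. At the 3969 H3K9me3 peaks with H3K4me3 these shares were 94.6%, 69.8% and 86.7%. UBF, a factor of the ribosomal RNA genes, was met by 13.5% (12.5 to 14.6) of H3K9me3 peaks with H3K4me3 and 0.398% (0.316 to 0.496) of those without, and Pol I by 4.91% and 0.126%. Over all H3K9me3 peaks the shares were 2.58% for UBF and 0.925% for Pol I. Among H3K4me3 peaks, UBF was met by 14.4% with H3K9me3 and 5.12% without, and Pol I by 6.88% and 2.68%. These shares depended on H3K4me3 width. In the narrowest H3K4me3 group, UBF was met by 4.21% with H3K9me3 and 0.334% without. The middle groups were closer, at 1.48% and 1.10% in the second and 6.57% and 6.06% in the third. In the widest group, UBF was met by 25.6% and 14.8%. All of H3K4me3 and the 5 other lists met at 57 of the H3K9me3 peaks.

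The longest overlaps were at places where other lists peaked as well. On chromosome 9, a single H3K9me3 peak from 2999823 to 3038937 (39114 bp) and a single H3K4me3 peak from 2999852 to 3038780 (38928 bp) were almost the same interval, and Pol II, H3K9ac and H4 hyperacetylation had 1 peak each over it. The interval lies at the start of the assembled sequence of this chromosome in mm9. On chromosome 6 the next H3K9me3 peak, from 47607237 to 47637017 (29780 bp), held an H3K4me3 peak from 47616302 to 47628748 (12446 bp), and that from 47687012 to 47705403 (18391 bp) held one from 47692084 to 47700744 (8660 bp). The overlap of 8517 bp on chromosome X joined H3K9me3 from 166436271 to 166447082 with H3K4me3 from 166432174 to 166444788. The last of the 5, 6191 bp on chromosome 17, joined H3K9me3 from 39979446 to 39986068 with H3K4me3 from 39979877 to 39986155, and was the only one of the 5 with a peak of all 7 lists.

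The widest peaks met the other mark in some cases and not in others. The widest H3K4me3 peak, on chromosome 8 from 126078023 to 126119836 (41813 bp), met 7 Pol II, 19 H3K9ac and 25 H4 hyperacetylation peaks and no H3K9me3. Among the 5 widest H3K4me3 peaks, those on chromosome 9 and on chromosome 11 from 3021767 to 3048924 (27157 bp) met H3K9me3. Those on chromosome 19 from 5792986 (26229 bp) and chromosome 15 from 76017877 (21573 bp) did not. The 5 widest H3K9me3 peaks, of 13738 to 39114 bp, all met H3K4me3 and Pol II. The widest H3K9me3 peaks without H3K4me3 were shorter. They measured 9841 bp on chromosome 5 from 144012176 to 144022017, where no other NIH3T3 list had a peak, 9418 bp on chromosome 1 from 172997928 to 173007346, with 1 Pol II peak, and 8800 bp on chromosome 17 from 3024166 to 3032966, again with no other list. Next came 8441 bp on chromosome 18 from 3112507 to 3120948, with 2 Pol II peaks and 1 of H4 hyperacetylation. The last was 8327 bp on chromosome 10 from 79197646 to 79205973, with 1 Pol II peak.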

How the data were processed

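For each antibody the authors deposited 1 list of peaks with a chromosome, a start and an end in bp, per the file headers. The lists hold no score, count or depth. The submitters' processing notes list CASAVA 1.8.2, BWA, Picard, the mouse build mm9 and the human build hg19, with no order. Not given in the sources used here are the program that called the peaks, its cutoff and whether samples were pooled. Input libraries were not used here. The 3 human lists were left out.

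Lists were read in Python 3.11.15 with numpy 2.4.6, pandas 2.3.3 and scipy 1.17.1. Peaks were assigned to 1-Mb bins by centre, from the first to the last bin that any of the 7 lists reaches. The span of a chromosome runs from the first to the last peak of these lists. Overlap meant at least 1 bp, and shares have exact (Clopper-Pearson) 95% intervals. No mm9 annotation or sequence was used here, and the counting origin of the positions is not given. The overlap, distance, cluster and bin functions were checked on simulated lists of 1500 peaks and gave the same answers as direct enumeration.

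Sites named individually were the 5 fullest bins and 5 largest clusters of each mark, the 5 bins best placed for both, the 5 longest overlaps and the 5 widest peaks. The comparison and these rules were chosen with earlier results of these data known.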

Additional observations from a re-analysis of the deposited data

How the results depend on the processing

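With 1 list per mark no replicate could be left out. No paired analysis was possible because each mark has a single list. Of 41 alternative values, 21 stayed within the interval of a share or within 1.5 times another value, 20 moved further, and none changed sign. Only the correlations and log2 ratios could change sign, since shares, cluster numbers and distances are never negative. The share of H3K9me3 peaks that met H3K4me3 (16.7%) was 14.0% with at least 50% of the peak covered, 13.4% with a centre within 1000 bp, 15.3% in the wider 50% of each list and 14.7% with the H3K4me3 list cut to its widest peaks, to the length of the H3K9me3 list. The share of H3K4me3 peaks (13.9%) was 5.90%, 11.3% and 12.6% under the first 3 of these. The Spearman correlations over bins were 0.33 for counts and 0.34 for covered length in bins of 100 kb, and 0.57 and 0.61 in bins of 5 Mb. Clusters of H3K9me3 (435) numbered 255 with gaps of at most 10 kb, 934 with 50 kb, 153 in the wider 50% and 70 with 10 or more peaks. Those of H3K4me3 (1086) numbered 480, 1682, 302 and 154. The median distances of 24.5 and 23.2 kb were 38.3 and 38.95 kb in the wider 50%, and the first was 40.5 kb without overlapping peaks. The median log2 width ratio stayed between -1.15 and -0.97. The depth behind the lists is unknown, so a missing peak does not show that a mark is absent.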
